A study of Mus musculus with 16 samples.

Results

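The genes described here are 41 enzymes, enzyme subunits, and helper proteins of N-glycosylation. They were chosen by name from the pathway, with earlier results of these data known. A gene was kept where it had more than 10 counts in at least 4 of 16 RNA-Seq libraries. All 41 met this rule, out of 24421 genes in the deposited table and 14565 genes that met the same rule. The libraries were made from CD11b+ brain cells of female C57BL/6J mice that were newly weaned when the diets began, 1 library per mouse, and the study asked how diet and gut microbes together shape microglia. CD11b is an integrin chain found on microglia and on other myeloid cells. CON mice (n = 4) ate a standard chow, MAL mice (n = 5) an isocaloric diet low in protein and fat, and MAL-BG mice (n = 7) the same low protein and fat diet combined with oral gavages of a mix of E. coli and Bacteroidales species. CON and MAL mice received gavages of buffer (PBS), so gavage is shared by all 3 groups, and the bacterial mix was studied here only on the low protein and fat diet. Cells were enriched by magnetic separation with beads against CD11b, with no further sort. Cortex is the source tissue by the labels, and whole cerebra by the Methods. The labels do not say which mice shared a cage or were processed together, so p-values measure the spread between these libraries.

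N-glycosylation attaches a preformed sugar tree to asparagine residues of proteins as they enter the endoplasmic reticulum (ER). The tree is built on the membrane lipid dolichol phosphate by a chain of glycosyltransferases, moved onto the protein by the oligosaccharyltransferase complex, and then trimmed by glucosidases and mannosidases while the protein folds. In the Golgi the trimmed tree is either left rich in mannose or rebuilt into branched complex glycans. In microglia, as in other myeloid cells, many surface receptors, adhesion proteins, and lysosomal hydrolases carry such glycans.

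Libraries held 10312703 to 13461574 counts in CON, 10864121 to 12819982 in MAL, and 14191791 to 18705202 in MAL-BG. All 10 microglia markers examined, among them P2ry12, Tmem119, and Cx3cr1, were detected, and their summed level was 16801 to 27499 CPM (counts scaled to a common library size) in CON, 17472 to 29780 CPM in MAL, and 36846 to 50302 CPM in MAL-BG. Markers of other cells were present as well, and those of several cell types moved with the groups. The 8 choroid plexus markers summed to 13816 to 53657 CPM in CON, 6408 to 42174 CPM in MAL, and 1762 to 16460 CPM in MAL-BG. The 10 neuron markers summed to 53.4 to 265 CPM in CON, 80.3 to 218 CPM in MAL, and 20.4 to 75.2 CPM in MAL-BG. The 9 neutrophil markers tested summed to 52.3 to 203 CPM in CON, 42.9 to 326 CPM in MAL, and 192 to 13314 CPM in MAL-BG, where replicate 5 held the highest sum. Endothelium markers summed to 509 to 1784 CPM in CON, 475 to 1340 CPM in MAL, and 1098 to 3541 CPM in MAL-BG. Lymphocyte markers were low throughout, with a highest sum of 27.0 CPM in CON, 24.8 CPM in MAL, and 53.8 CPM in MAL-BG and medians of 17.2, 18.7, and 38.4 CPM. Medians in CON, MAL, and MAL-BG were 436, 431, and 157 CPM for astrocytes, 182, 142, and 50.2 CPM for ependyma, 642, 694, and 829.9 CPM for oligodendrocytes, 265, 383, and 242 CPM for monocytes, and 283, 290.0, and 268 CPM for border macrophages. Monocyte sums in MAL-BG ran from 139 to 1071 CPM, with the highest in replicate 5. Replicate numbers are those of the deposited table and pair no libraries across groups.

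N-glycosylation genes were more often higher than lower in MAL-BG libraries. The study's own pathway analysis had already listed asparagine N-linked glycosylation as enriched among genes higher in MAL-BG than in CON. It used the same libraries, so the counts below describe the genes and give no separate evidence. Of the 41 genes, 18 were differentially expressed genes (DEGs) higher in MAL-BG than in CON (43.9%, against 11.4% of all genes tested), and 2 were DEGs lower in MAL-BG (4.88%, against 21.7%). DEGs had a Benjamini-Hochberg adjusted p under 0.05 in edgeR's quasi-likelihood test and an absolute log2 fold change above 0.58. Against MAL, 17 genes were DEGs higher in MAL-BG (41.5%, against 10.2% of all genes tested) and 2 were DEGs lower (against 20.2%). Over the 41 genes, log2 fold changes had a median of 0.52 against CON and of 0.48 against MAL, while the medians of all genes tested were -0.04 and -0.03. The log2 fold changes of all 41 genes are plotted by role.

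**Figure D1:**
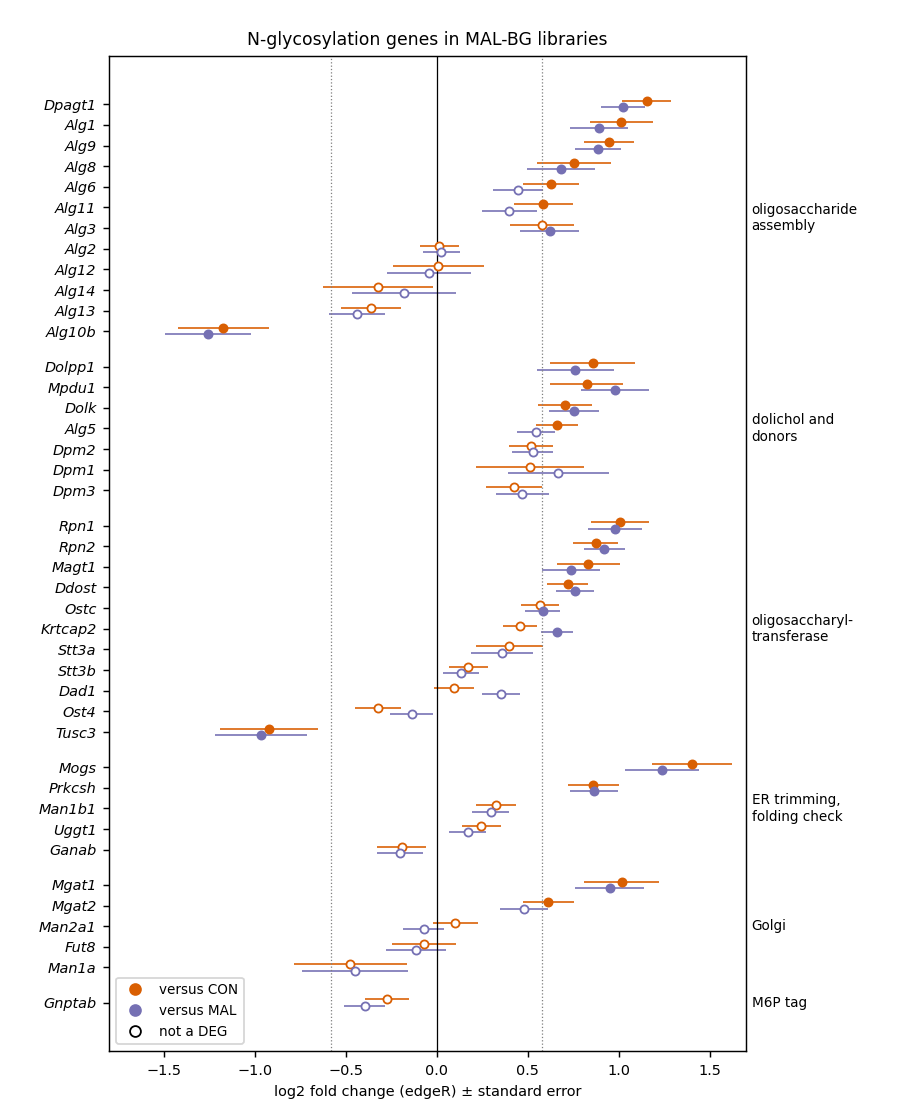
Log2 fold change of each N-glycosylation gene in MAL-BG against CON (orange) and against MAL (purple), with a standard error derived from edgeR's F statistic. Filled points are DEGs, open points are not, and dotted lines mark the absolute log2 fold change of 0.58. Genes are grouped by role, and Mogs has the highest value (1.40 against CON) and Alg10b the lowest (-1.26 against MAL).

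By the adjusted p alone, 24 of the 41 genes were higher and 3 lower against CON (19.8% and 25.2% of all genes tested were), and 25 were higher and 4 lower against MAL (20.2% and 24.1% of all genes tested). For 15 of the 41 genes, the 7 MAL-BG libraries all exceeded the other 9 (36.6%, against 6.17% of all genes tested), and for 1, Alg10b, they were all lower (against 6.36%). Among the 9788 genes with a mean of at least 10 CPM, which include 40 of the 41, the share of DEGs higher than in CON was 13.96% and log2 fold changes had a median of 0.07. The 41 genes took a median of 0.269% of all counts in CON libraries, 0.271% in MAL libraries, and 0.367% in MAL-BG libraries. Both comparisons use the same 7 MAL-BG libraries, so they are not independent.

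The microglia markers were also higher in MAL-BG, with 6 DEGs of 10 and a median of 0.81 (CON) and 0.82 (MAL) on the log2 scale. Of the 41 N-glycosylation genes, 11 lay above that median against CON and 9 against MAL. The share of all genes tested that lay above it was not determined, so these counts have no background. The part of cell composition in the differences was not tested, and in bulk libraries fewer cells of a type and less RNA per cell cannot be told apart. CON replicate 1, MAL replicate 4, and MAL-BG replicate 5, whose marker sums stood apart, were also left out together. MAL-BG replicate 5 held the highest neutrophil sum. CON replicate 1 and MAL replicate 4 held the highest microglia sums (27499 and 29780 CPM) and lowest choroid plexus sums (13816 and 6408 CPM) of their groups. By these markers they were the libraries of their groups nearest to MAL-BG, so this fit is no check on cell composition. In that fit, 23 of the 41 genes were DEGs against CON in place of 20, and 23 against MAL in place of 19. DEGs among all genes rose too, from 4820 of 14565 to 5741 of 14442 against CON. Against MAL they rose from 4423 to 5293. Scaling by the mean log2 CPM of each library moved the median of all genes to 0.21 against CON. It moved the share of DEGs that were higher from 34.4% to 57.8%. Under it 26 of the 41 genes were DEGs against CON, and DEGs among all genes rose to 5701.

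MAL libraries did not differ from CON libraries in any N-glycosylation gene at the adjusted threshold. None of the 41 genes was a DEG, as was 0% of all genes tested in edgeR's quasi-likelihood test, and DESeq2 called none of the 41 either. At an unadjusted p under 0.05 there was 1 gene of the 41, against 1.46% of all genes tested. This gene was Dad1, with a log2 fold change of -0.26 in MAL and an adjusted p of 0.999 (edgeR), and Krtcap2 was next (-0.21, adjusted p of 0.999). The median log2 fold change of the 41 genes in MAL was 0.04.

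RefSeq promoter windows, running from 250 bases before to 50 after a transcription start, were at hand for 36 of the 41 genes (43 windows, GRCm38.p6) and were searched on both strands for 3 motifs known from genes of the ER and secretory pathway. The ER stress response element, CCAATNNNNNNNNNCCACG, was in 1 of the 43 windows, that of Alg12 (2.33%, against 0.12% of the windows of all tested genes). The unfolded protein response element, TGACGTGG, was in 0 of the 43 windows (against 0.893%). The E-box CACGTG was in 5 windows, those of Alg1, Dolk, Dpm2, Magt1, and Prkcsh (11.6%, against 9.33%). A match describes the letters only, and binding was not measured. The longest upstream stretches without an annotated exon are shown for Alg12, which holds the stress element, for Dpm2 and Prkcsh, which hold an E-box, and for Mogs and Ganab, which hold none of the 3 motifs and act with Prkcsh on the glucoses of the tree. Capitals mark the motif letters, and all are written 5′ to 3′ on the strand of the gene, which is the minus strand for Alg12 and the plus strand for the others. They lie at chr15:88819319-88819568 (Alg12), chr2:32570608-32570857 (Dpm2), chr9:22002738-22002805 (Prkcsh), chr19:8897889-8898056 (Ganab), and chr6:83115256-83115495 (Mogs).
Alg12: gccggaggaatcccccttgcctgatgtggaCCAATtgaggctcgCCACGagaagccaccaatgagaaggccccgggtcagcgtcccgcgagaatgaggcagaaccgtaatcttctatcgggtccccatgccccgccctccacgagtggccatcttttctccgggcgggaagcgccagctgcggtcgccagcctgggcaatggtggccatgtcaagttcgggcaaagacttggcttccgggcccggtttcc
Dpm2: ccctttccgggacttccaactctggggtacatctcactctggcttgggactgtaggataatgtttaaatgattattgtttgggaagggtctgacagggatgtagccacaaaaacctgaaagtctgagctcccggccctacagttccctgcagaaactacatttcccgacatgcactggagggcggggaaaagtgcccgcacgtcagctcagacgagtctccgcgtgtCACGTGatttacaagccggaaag
Prkcsh: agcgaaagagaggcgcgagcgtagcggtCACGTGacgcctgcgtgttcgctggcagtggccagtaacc
Ganab: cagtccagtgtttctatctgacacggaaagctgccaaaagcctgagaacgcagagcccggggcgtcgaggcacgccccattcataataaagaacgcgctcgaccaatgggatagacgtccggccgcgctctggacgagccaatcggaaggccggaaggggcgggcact
Mogs: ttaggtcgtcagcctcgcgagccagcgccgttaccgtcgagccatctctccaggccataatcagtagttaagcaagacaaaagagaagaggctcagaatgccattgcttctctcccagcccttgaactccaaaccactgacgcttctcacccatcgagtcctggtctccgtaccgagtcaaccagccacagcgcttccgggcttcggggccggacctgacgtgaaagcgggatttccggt
Alg12, which adds a late mannose to the tree, did not pass the test, at 0.01 ± 0.25 on the log2 scale against CON (adjusted p = 0.979). Of the genes with an E-box, Alg1, Dolk, Magt1, and Prkcsh were DEGs in both comparisons and Dpm2 was not. Dolk lost both calls with length and GC content adjusted for. Among all 41 genes, with or without a window, 18 were DEGs higher against CON and 17 against MAL, each comparison counted by itself. The share of DEGs among all tested genes with an E-box was not determined. With so few genes holding an E-box, a relation between the motif and the changes was not tested.

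The first 12 genes build the tree on dolichol. Against CON, 6 of them (50%) were DEGs higher in MAL-BG and 1 (8.33%) was lower. Another 1 passed the test below the fold change threshold, and 4 did not pass. Against MAL, 5 (41.7%) were DEGs higher and 1 (8.33%) was lower. For each role, the shares of all genes tested to set beside such counts are 11.4% higher and 21.7% lower against CON. Against MAL they are 10.2% and 20.2%. Dpagt1 (chr9:44326019-44333900, as all positions GENCODE gene models on GRCm38) starts the chain by placing the first sugar on dolichol phosphate. Its level was 38.9, 27.9, 28.8, and 23.2 CPM in the 4 CON libraries, 36.1, 31.1, 30.3, 37.2, and 28.0 CPM in the 5 MAL libraries, and 54.8 to 70.9 CPM (median 68.3) in the 7 MAL-BG libraries. Every MAL-BG library was above every other library, although replicate 5 was low within its group. Dpagt1 rose by 1.15 ± 0.13 (log2 fold change ± standard error) against CON (adjusted p = 1.65e-05) and by 1.02 ± 0.12 against MAL (adjusted p = 2.36e-05).

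Alg1 (chr16:5233621-5244912), which adds the first mannose, had the highest level per length among these 12 genes, with a mean of 25.4 CPM per kilobase of exon. In CON it measured 58.7, 43.8, 45.4, and 36.9 CPM, in MAL 56.8, 48.7, 41.8, 60.6, and 43.8 CPM, and in MAL-BG 60.7 to 112 CPM (median 97.5). The lowest MAL-BG library, replicate 6, lay just above the highest MAL library, and the groups did not overlap. Alg1 rose by 1.01 ± 0.17 against CON (adjusted p = 0.000269) and by 0.89 ± 0.16 against MAL (adjusted p = 0.000384) on the log2 scale. Of its exon bases, 17.6% overlap Eef2kmt on the opposite strand, and the strand setting of the counting is not stated in the sources used here.

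Alg9 (chr9:50775019-50843542) works in the ER lumen, where it adds mannose to the growing tree. It was at 28.1, 20.1, 28.2, and 22.6 CPM in CON, 26.99, 23.4, 23.7, 29.4, and 25.7 CPM in MAL, and 38.8 to 57.2 CPM (median 47.2) in MAL-BG, again without overlap. The log2 fold changes were 0.94 ± 0.14 (adjusted p = 9.68e-05) and 0.88 ± 0.13 (adjusted p = 8.58e-05) against CON and MAL, and 12.9% of its exon bases overlap a gene on the opposite strand, 1110032A03Rik. Alg8 (chr7:97371606-97392185), which adds the second glucose, measured 29.2, 20.4, 18.8, and 14.99 CPM in CON, 25.9, 17.6, 16.9, 30.1, and 19.03 CPM in MAL, and 27.3 to 46.5 CPM (median 33.8) in MAL-BG. CON replicate 1 and MAL replicate 4 were the highest of their groups and overlapped the MAL-BG range. Alg8 was higher by 0.75 ± 0.20 against CON (adjusted p = 0.00647) and by 0.68 ± 0.19 against MAL (adjusted p = 0.00754), and it was under the fold change threshold once gene length and GC content were adjusted for (0.57 and 0.51).

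Alg10b (chr15:90224311-90233471), which adds the last glucose and so completes the tree, went the other way. Its level was 19.04, 19.9, 21.6, and 18.7 CPM in CON and 23.5, 20.1, 23.3, 15.96, and 22.1 CPM in MAL. In MAL-BG replicates 1 to 7 it was 10.6, 4.90, 5.93, 6.23, 11.6, 15.5, and 6.60 CPM, all below the lowest MAL library. Alg10b fell, with log2 fold changes of -1.17 ± 0.25 against CON (adjusted p = 0.00144) and -1.26 ± 0.24 against MAL (adjusted p = 0.000629). Alg6, which adds the first glucose, and Alg11, which adds mannoses on the outer side of the ER membrane, were DEGs against CON only (0.63 and 0.59), although their adjusted p also passed against MAL (0.45 and 0.40). Alg3, which adds the first mannose of the lumen, was a DEG against MAL (0.62) and narrowly missed the threshold against CON (0.58 after rounding, adjusted p = 0.013). The difference between the 2 comparisons was not tested for these genes, and their calls were close to the threshold. Alg6 was at 0.50 against CON with total counts only. The call of Alg11 against CON was lost with upper-quartile scaling (0.57), total counts only (0.46), length and GC content adjusted for (0.51), and a model of only 2 groups (0.58), and at 0.50 to 0.58 without CON replicate 3 or 4, any single MAL library, or MAL-BG replicate 5 or 6. The call of Alg3 against MAL was lost with total counts only (0.48), with length and GC content adjusted for (0.37), and without MAL-BG replicate 1 or 6 (0.57 each). Against CON, Alg3 became a DEG without CON replicate 1 or MAL-BG replicate 2, 3, 4, or 7 (0.63 to 0.68). Alg2, Alg12, and Alg14 passed in neither comparison, at 0.01, 0.01, and -0.32 against CON, and Alg13, which joins Alg14 to add the second N-acetylglucosamine, was at -0.36 against CON (adjusted p = 0.0858) and -0.44 against MAL (adjusted p = 0.0302).

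Another 7 genes supply dolichol phosphate and the sugars bound to it. All 7 had positive log2 fold changes in both comparisons, 4 (57.1%) were DEGs against CON and 3 (42.9%) against MAL, and none was lower. Dolk (chr2:30284231-30286334), the kinase that makes dolichol phosphate, was at 21.4, 17.6, 17.5, and 17.3 CPM in CON, 18.9, 21.3, 17.2, 16.5, and 15.4 CPM in MAL, and 22.5 to 36.2 CPM (median 30.6) in MAL-BG, without overlap. It rose by 0.71 ± 0.15 against CON (adjusted p = 0.00121) and by 0.75 ± 0.14 against MAL (adjusted p = 0.000465) on the log2 scale, and was under the fold change threshold with length and GC content adjusted for (0.52 and 0.53). Dolpp1 (chr2:30392254-30400529) returns the used carrier to the cycle by removing a phosphate. It measured 42.5, 22.8, 23.1, and 19.3 CPM in CON, 30.5, 23.7, 27.02, 41.3, and 21.3 CPM in MAL, and 35.3 to 68.3 CPM (median 48.5) in MAL-BG. CON replicate 1 and MAL replicate 4 lay within the MAL-BG range, and the other CON and MAL libraries lay below it. The log2 fold change of Dolpp1 was 0.86 ± 0.23 against CON (adjusted p = 0.0069) and 0.76 ± 0.21 against MAL (adjusted p = 0.00876).

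Mpdu1 (chr11:69656697-69662642), which is needed for the use of mannose and glucose bound to dolichol, was at 50.3, 56.3, 47.7, and 49.1 CPM in CON and 38.8, 44.98, 41.99, 61.8, and 40.5 CPM in MAL. The 7 MAL-BG libraries were at 89.03, 113, 92.4, 104, 79.03, 44.6, and 108 CPM, so that replicate 6 lay within the range of the other groups and the remaining 6 above it. Its log2 fold change was 0.82 ± 0.20 against CON (adjusted p = 0.00341) and 0.98 ± 0.19 against MAL (adjusted p = 0.000652). Dpm3 (chr3:89259358-89267079), a small membrane anchor of the dolichol phosphate mannose synthase, had the highest level per length of the 7 genes, at 32.1 CPM per kilobase. It was at 26.7, 25.1, 29.00, and 22.6 CPM in CON, 21.8, 26.4, 25.7, 29.2, and 22.1 CPM in MAL, and 21.1 to 41.6 CPM (median 36.1) in MAL-BG, where replicate 6 was the lowest of all 16 libraries and the other 6 lay above the CON and MAL libraries. Dpm3 passed the test with log2 fold changes of 0.42 ± 0.15 (adjusted p = 0.0342) and 0.47 ± 0.14 (adjusted p = 0.0144), below the fold change threshold of a DEG.

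Alg5, the synthase for glucose bound to dolichol, was a DEG against CON (0.66) and passed the test below the fold change threshold against MAL (0.55). Its call against CON was lost with total counts only or with length and GC content adjusted for (0.53 each), and against MAL it became a DEG without MAL replicate 4 or MAL-BG replicate 2, 3, 4, or 7 (0.58 to 0.62). Dpm2, which binds and regulates the mannose synthase, passed in both comparisons below that threshold (0.52 and 0.53), and was a DEG in both without MAL-BG replicate 4 (0.61 and 0.61) and against CON without CON replicate 1 (0.59). Dpm1, the catalytic subunit of the same enzyme, was the lowest of all 41 genes per length (0.440 CPM per kilobase) and did not pass, at 0.51 ± 0.30 against CON (adjusted p = 0.172) and 0.67 ± 0.28 against MAL (adjusted p = 0.0608). Dpm1 was a DEG against MAL without MAL-BG replicate 1, 2, or 5 (0.75 to 0.79). Of its exon bases, 11.95% overlap the gene model Gm20716 on the same strand, so the level of Dpm1 is uncertain.

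The oligosaccharyltransferase moves the finished tree onto protein. Of its 11 subunit genes, 4 (36.4%) were higher and 1 (9.09%) was lower as DEGs against CON. Against MAL, 6 (54.5%) were higher and 1 (9.09%) was lower. The catalytic subunit is STT3A in one form of the complex and STT3B in the other, and the shared subunits include ribophorins 1 and 2 (Rpn1, Rpn2) and DDOST. Ddost (chr4:138304730-138312628) had the highest level per length of all 41 genes, with a mean of 94.7 CPM per kilobase, followed by Rpn2 (73.6 CPM per kilobase). Ddost was at 173, 149.5, 160.5, and 147 CPM in CON, 144, 158, 136, 177, and 151 CPM in MAL, and 233 to 334 CPM (median 259) in MAL-BG. No library of another group reached the MAL-BG range, in which replicate 1 stood highest. The log2 fold change of Ddost was 0.72 ± 0.11 against CON (adjusted p = 0.000171) and 0.76 ± 0.11 against MAL (adjusted p = 6.44e-05), and was under the DEG threshold with length and GC content adjusted for (0.56 and 0.56).

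Rpn1 (chr6:88084482-88105304) measured 189, 186, 184, and 155 CPM in CON, 165, 207, 176, 188, and 172 CPM in MAL, and 243 to 459 CPM (median 379.5) in MAL-BG. It rose by 1.005 ± 0.16 against CON (adjusted p = 0.000173) and by 0.98 ± 0.15 against MAL (adjusted p = 0.000117) on the log2 scale, with no overlap between MAL-BG and the other groups. Rpn2 (chr2:157279017-157326319), its partner in the shared core, was at 257, 225, 252, and 229 CPM in CON, 209, 225, 210.4, 283, and 237 CPM in MAL, and 363 to 496 CPM (median 473) in MAL-BG, also with no overlap. Its log2 fold changes were 0.87 ± 0.12 (adjusted p = 7.31e-05) and 0.92 ± 0.11 (adjusted p = 2.83e-05) against CON and MAL.

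The catalytic subunits passed in neither comparison. Stt3a was at 0.40 ± 0.18 against CON (adjusted p = 0.0885) and 0.36 ± 0.17 against MAL (adjusted p = 0.0971), and Stt3b at 0.17 ± 0.11 (adjusted p = 0.203) and 0.13 ± 0.10 (adjusted p = 0.295). The spread of Stt3a within MAL-BG was wide. It was chosen for mention after its values were seen, which were 205, 91.2, 109, 136, 176, 210.1, and 139.6 CPM in replicates 1 to 7 against 116 ± 6.91 CPM (mean ± SD, n = 4) in CON and 119 ± 4.46 CPM (n = 5) in MAL. Replicates 1, 5, and 6 were the highest, and replicates 2 and 3 were below or within the range of CON.

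Magt1 and Tusc3 encode alternative oxidoreductase subunits that join the STT3B form of the complex, and they moved in opposite directions. Magt1 (chrX:105968084-106011906) was at 111, 102, 109, and 99.8 CPM in CON, 106, 108, 105, 139.8, and 104 CPM in MAL, and 115 to 234 CPM (median 214) in MAL-BG. MAL replicate 4 was the only library of the other groups inside the MAL-BG range. Magt1 rose by 0.83 ± 0.17 against CON (adjusted p = 0.00119) and by 0.74 ± 0.16 against MAL (adjusted p = 0.00164) on the log2 scale.

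Tusc3 (chr8:39005845-39165114) was at 22.7, 46.01, 40.3, and 35.05 CPM in CON, 27.4, 49.1, 53.00, 19.6, and 36.1 CPM in MAL, and 11.4 to 27.4 CPM (median 16.7) in MAL-BG. The groups overlapped, since CON replicate 1 and MAL replicates 1 and 4 were low. The log2 fold change of Tusc3 was -0.92 ± 0.27 against CON (adjusted p = 0.0105) and -0.96 ± 0.25 against MAL (adjusted p = 0.0059). CON replicate 1 and MAL replicate 4 also held the highest microglia marker sums of their groups (27499 and 29780 CPM). Their choroid plexus sums (13816 and 6408 CPM) and neuron sums (53.4 and 80.3 CPM) were the lowest of their groups.

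The ratio of Magt1 to Tusc3 counts within a library does not depend on library scaling, but whether it depends on cell composition was not tested. The geometric mean of this ratio was 3.02 in CON (range 2.22 to 4.88), 3.22 in MAL (range 1.98 to 7.13), and 9.99 in MAL-BG (range 4.83 to 20.4). The highest CON and MAL values were those of CON replicate 1 and MAL replicate 4. The ratio was higher in MAL-BG than in CON by 1.72 on the log2 scale (two-sided exact permutation test, p = 0.00909, adjusted p = 0.0273 over 12 tests) and higher than in MAL by 1.63 (exact permutation test, p = 0.00884, adjusted p = 0.0273). In 6 of 7 MAL-BG libraries it lay above all CON libraries, and in 5 of 7 above all MAL libraries. MAL-BG replicates 2, 3, 4, and 7 were at 12.8 to 20.4, and replicates 1, 5, and 6 at 5.49, 4.83, and 7.14. Replicate 6 exceeded the highest MAL library only narrowly (7.136 against 7.127). In MAL the ratio of Magt1 to Tusc3 did not differ detectably from CON (exact permutation test, p = 0.833, adjusted p = 0.97). These gene pairs were chosen with the values of the genes known, and the adjustment covers only the 12 tests. Their p-values are therefore descriptive.

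The ratio of Rpn1 to Stt3a averaged 1.54 in CON libraries, 1.52 in MAL libraries, and 2.39 in MAL-BG libraries (geometric means), where it ranged from 1.22 to 5.04. The difference did not pass (exact permutation test, adjusted p = 0.297 against CON and 0.245 against MAL). The ratio of Stt3a to Stt3b averaged 1.36 in CON libraries, 1.36 in MAL libraries, and 1.54 in MAL-BG libraries and did not pass either (exact permutation test, adjusted p = 0.323 against CON and 0.301 against MAL). For both ratios the MAL-BG range took in the geometric means of the other groups.

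**Figure D2:**
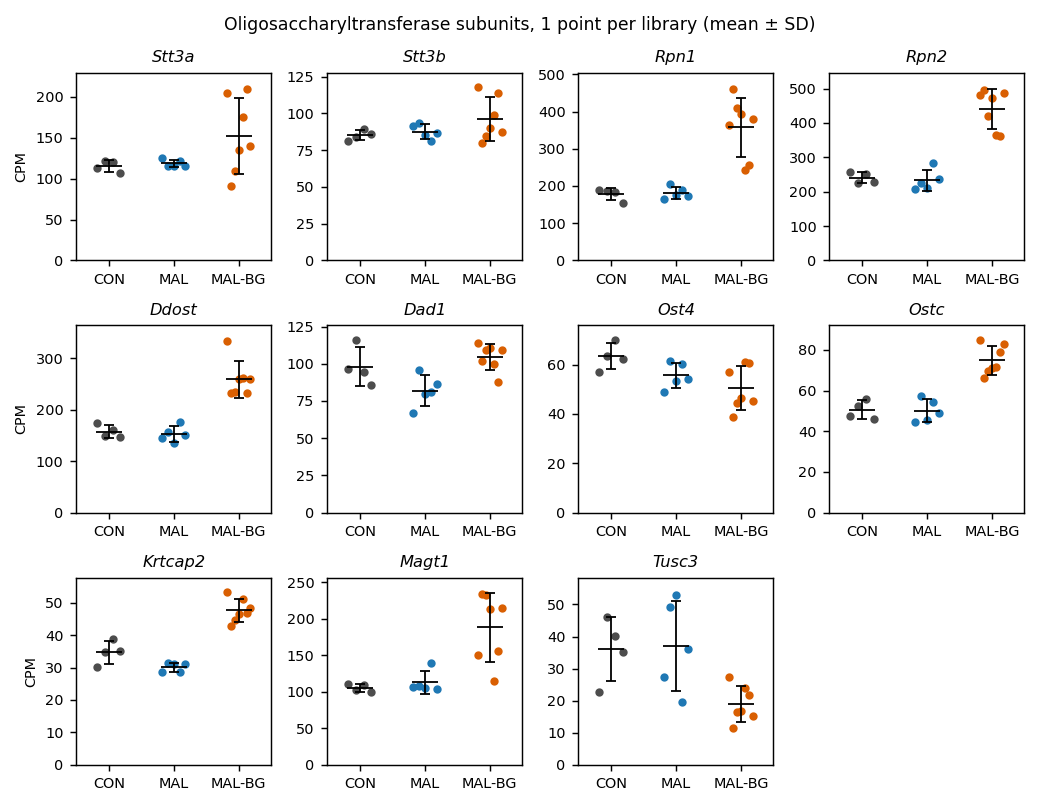
CPM of the 11 oligosaccharyltransferase subunit genes in CON, MAL, and MAL-BG, with 1 point per library and the mean ± SD of each group. Rpn1, Rpn2, Ddost, Ostc, and Krtcap2 show no overlap between MAL-BG and the other groups, Tusc3 is lower in MAL-BG, and Stt3a is widely spread there (91.2 to 210.1 CPM).

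Ostc and Krtcap2 encode subunits of the STT3A form. Both had all 7 MAL-BG libraries above the other 9 and were DEGs against MAL only, at 0.58 ± 0.10 (adjusted p = 0.000254) and 0.66 ± 0.09 (adjusted p = 4.65e-05). Against CON they passed the test below the fold change threshold (0.57 and 0.46), so the comparisons differ by the threshold, and the difference itself was not tested. The call of Ostc against MAL lay at the threshold. It was lost with upper-quartile scaling (0.56), total counts only (0.45), length and GC content adjusted for (0.40), and a model of only 2 groups (0.57), and at 0.53 to 0.57 without any single CON library, MAL replicate 1, 3, or 5, or MAL-BG replicate 6. Against CON, Ostc became a DEG without CON replicate 3 or MAL-BG replicate 1, 2, 4, or 7 (0.59 to 0.66). The call of Krtcap2 against MAL was lost with total counts only (0.52) and with length and GC content adjusted for (0.38). Of the exon bases of Krtcap2, 15.7% overlap Trim46 on the opposite strand. Dad1, a small shared subunit, was at 0.09 against CON (adjusted p = 0.512) and 0.35 against MAL (adjusted p = 0.011). Ost4, the smallest subunit, was at -0.32 against CON (adjusted p = 0.0454) and -0.14 against MAL (adjusted p = 0.36), and since 53.2% of its exon bases overlap Agbl5 on the opposite strand its level is uncertain.

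Trimming in the ER starts with glucosidase I, encoded by Mogs (chr6:83115496-83118898), which removes the outermost glucose. Of the 5 genes of ER trimming and folding check, Mogs and Prkcsh (40%) were DEGs higher in MAL-BG in both comparisons, and none was lower. Mogs had the largest log2 fold change of the 41 genes. It was at 73.6, 38.4, 43.4, and 36.8 CPM in CON, 56.9, 52.4, 45.4, 72.3, and 42.7 CPM in MAL, and 88.1 to 171 CPM (median 136) in MAL-BG. The lowest MAL-BG library was above the highest of the others, while CON replicate 1 and MAL replicate 4 were the highest of their groups. Mogs rose by 1.40 ± 0.22 against CON (adjusted p = 0.000165) and by 1.24 ± 0.20 against MAL (adjusted p = 0.000217) on the log2 scale.

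Glucosidase II removes the inner glucoses and has a catalytic subunit, encoded by Ganab, and a regulatory subunit, encoded by Prkcsh. Prkcsh (chr9:22002806-22014222) measured 111, 96.3, 102, and 83.4 CPM in CON, 88.5, 115, 89.99, 99.8, and 96.6 CPM in MAL, and 130.4 to 214 CPM (median 182) in MAL-BG. It rose without overlap, with log2 fold changes of 0.86 ± 0.14 against CON (adjusted p = 0.000222) and 0.86 ± 0.13 against MAL (adjusted p = 0.000124). Ganab (chr19:8898071-8916672) was at 224, 173, 183, and 162 CPM in CON, 187, 201, 186, 185, and 174 CPM in MAL, and 203, 145, 129.9, 139, 174, 206, and 139 CPM in MAL-BG replicates 1 to 7. The groups overlapped, with replicates 1, 5, and 6 within the range of CON and replicates 2, 3, 4, and 7 below every other library. Ganab did not pass, at -0.19 ± 0.14 against CON (adjusted p = 0.256) and -0.20 ± 0.13 against MAL (adjusted p = 0.204), and the sign of these values turned under scaling by the mean log2 CPM.

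The ratio of Prkcsh to Ganab counts was higher in every MAL-BG library than in all libraries of the other groups. Its geometric mean was 0.531 in CON (range 0.498 to 0.559), 0.524 in MAL (range 0.475 to 0.575), and 1.10 in MAL-BG (range 0.635 to 1.48). On the log2 scale the ratio was higher by 1.05 against CON (two-sided exact permutation test, p = 0.00606, adjusted p = 0.0273) and by 1.07 against MAL (exact permutation test, p = 0.00253, adjusted p = 0.0273), in 7 of 7 MAL-BG libraries each time. The smallest p that these designs allow is 0.00303 against CON and 0.00126 against MAL. As this pair was also chosen with the values of its genes known, the p-values are descriptive only. The ratio in MAL did not differ detectably from that in CON (exact permutation test, p = 0.762, adjusted p = 0.97).

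**Figure D3:**
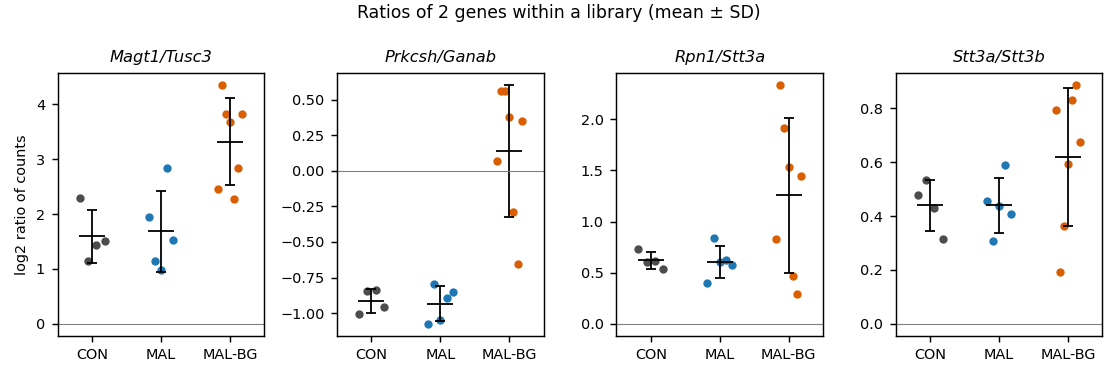
Log2 ratio of the counts of 2 genes within each library, for Magt1 to Tusc3, Prkcsh to Ganab, Rpn1 to Stt3a, and Stt3a to Stt3b, with 1 point per library and the mean ± SD of CON, MAL, and MAL-BG. In MAL-BG the ratio of Prkcsh to Ganab lies above all other libraries in 7 of 7 libraries, and the ratio of Magt1 to Tusc3 lies above all CON libraries in 6 of 7.

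The other genes of the ER group changed less. Man1b1, which removes a mannose from the tree in the ER, passed the test below the fold change threshold, at 0.32 ± 0.11 against CON (adjusted p = 0.0243) and 0.30 ± 0.10 against MAL (adjusted p = 0.0263). Uggt1, which puts glucose back on misfolded proteins, did not pass, at 0.24 ± 0.11 against CON (adjusted p = 0.0748) and 0.17 ± 0.10 against MAL (adjusted p = 0.177).

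Of the 5 Golgi genes, Mgat1 and Mgat2 (40%) were DEGs higher in MAL-BG than in CON. Mgat1 alone (20%) was a DEG against MAL, and none was lower. Mgat1 (chr11:49244191-49263030) adds the N-acetylglucosamine that opens the way to hybrid and complex glycans. It was the most abundant of the 5 per length (64.8 CPM per kilobase) and measured 308, 168, 196, and 166 CPM in CON, 231, 196, 187, 293, and 192 CPM in MAL, and 320.0 to 597 CPM (median 403) in MAL-BG. No MAL-BG library overlapped the other groups, although CON replicate 1 and MAL replicate 4 came close to the lowest of them. Mgat1 rose by 1.02 ± 0.21 against CON (adjusted p = 0.000986) and by 0.95 ± 0.19 against MAL (adjusted p = 0.000935) on the log2 scale.

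Mgat2, which acts after Mgat1 and commits a glycan to the complex type, was a DEG against CON (0.61 ± 0.14, adjusted p = 0.00239) and passed the test below the fold change threshold against MAL (0.48 ± 0.13, adjusted p = 0.00715). The call against CON was lost with total counts only (0.49), with length and GC content adjusted for (0.44), and without CON replicate 2 (0.56), MAL-BG replicate 5 (0.57), or MAL-BG replicate 6 (0.53), and against MAL Mgat2 became a DEG without MAL-BG replicate 2 (0.59). The mannosidase gene Man2a1, whose enzyme acts between Mgat1 and Mgat2, and Fut8, which adds the core fucose, did not pass (adjusted p = 0.521 and 0.764 against CON). Man1a, a Golgi mannosidase that trims the tree before Mgat1, did not pass either, at -0.48 ± 0.31 against CON (adjusted p = 0.222) and -0.45 ± 0.29 against MAL (adjusted p = 0.218). Its MAL-BG libraries, named after their values were seen, were at 89.97, 35.8, 32.5, 49.8, 82.6, 148, and 46.6 CPM in replicates 1 to 7, against 96.5 ± 9.02 CPM (mean ± SD, n = 4) in CON and 94.8 ± 10.1 CPM (n = 5) in MAL. Replicates 2, 3, 4, and 7 lay below every CON and MAL library and replicate 6 above every one. Without replicate 6, Man1a was a DEG lower in MAL-BG in both comparisons (-0.78 against CON and -0.75 against MAL).

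Gnptab (chr10:88379132-88447329) encodes the catalytic part of the enzyme that starts the mannose 6-phosphate tag, which sends hydrolases to the lysosome. It was at 34.7, 34.2, 38.2, and 31.9 CPM in CON, 41.3, 34.5, 36.05, 39.2, and 38.2 CPM in MAL, and 23.3 to 34.9 CPM (median 29.5) in MAL-BG. The ranges overlapped, with the lowest libraries in MAL-BG. Gnptab passed the test against MAL below the fold change threshold (-0.40 ± 0.11, adjusted p = 0.00845) and did not pass against CON (-0.27 ± 0.12, adjusted p = 0.0691).

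The sequence of the genes was related to these values within the list. Spearman's rho between exon GC content and log2 fold change over the 41 genes was 0.54 against CON and 0.60 against MAL, while over 14023 genes tested it was -0.00 and 0.05. With exon length, rho was -0.23 and -0.33 over the 41 genes and -0.21 and -0.24 over all. These values are across genes, which are not independent replicates and share the same libraries.

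Further genes of the pathway and of neighbouring routes were described in the same way. Another 49 N-glycan pathway genes make sugar donors, check folding, extend branches, or carry glycoproteins. Against CON, 10 were DEGs higher (20.4%, against 11.4% of all genes tested) and 4 lower (8.16%, against 21.7%). Against MAL, 13 were higher (26.5%, against 10.2%) and 6 lower (12.2%, against 20.2%). Their log2 fold changes had medians of 0.34 (CON) and 0.33 (MAL). The 3 with the largest change among DEGs of both comparisons were lower in MAL-BG. B4galt2, which adds galactose, was at 11.1 ± 4.36 CPM (SD, n = 4) in CON, 8.53 ± 3.72 CPM (n = 5) in MAL, and 3.29 ± 1.18 CPM (n = 7) in MAL-BG, which gave -1.75 ± 0.37 on the log2 scale against CON (adjusted p = 0.00137). Igf2r, a receptor for the mannose 6-phosphate tag, had a log2 fold change of -1.73 ± 0.40 (adjusted p = 0.00239), and Mgat5, which adds a branch to complex glycans, of -1.41 ± 0.31 (adjusted p = 0.0019).

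Among 15 genes of the ER translocon and signal peptidase, through which the same proteins pass, 8 were DEGs higher and 0 DEGs lower in MAL-BG against CON, and the median log2 fold change was 0.68. Spcs2, Sec11a, and Sec11c, subunits of the signal peptidase, had log2 fold changes of 1.0 ± 0.11, 0.99 ± 0.14, and 0.83 ± 0.15 (adjusted p = 1.23e-05, 5.66e-05, and 0.000465). Of 23 tested genes of GPI anchor synthesis, 9 were higher and 2 lower, with a median of 0.14, and among them Pigt was at 1.22, Pigb at -1.08, and Pigw at 0.99. Of 17 genes of mucin-type O-glycosylation, 6 were higher and 2 lower, with a median of 0.35, and among them C1galt1 was at -1.64, Galnt4 at 0.89, and St6galnac4 at 0.87. Against MAL the counts of higher and lower genes were 9 and 0 for the translocon and signal peptidase, 8 and 1 for GPI anchor synthesis, and 5 and 3 for O-glycosylation. In the same order, the shares higher against CON were 53.3%, 39.1%, and 35.3%, beside 11.4% of all genes tested. The shares lower were 0%, 8.70%, and 11.8%, beside 21.7%. Against MAL the shares higher were 60%, 34.8%, and 29.4%, beside 10.2%, and those lower 0%, 4.35%, and 17.6%, beside 20.2%. No difference between the lists was tested.

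**Figure D4:**
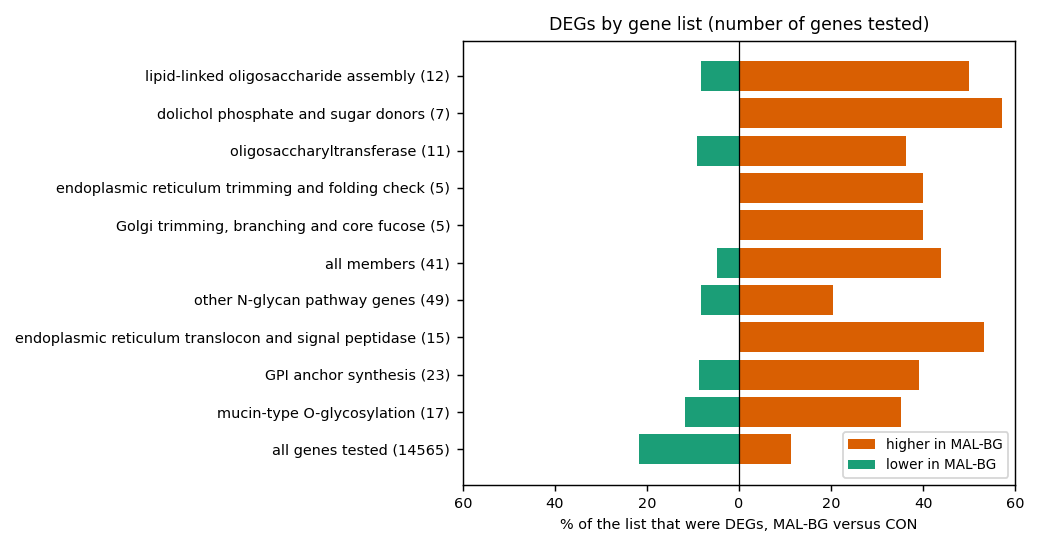
Share of genes in each list that were DEGs between MAL-BG and CON, as a percentage of the genes tested, with higher genes to the right and lower genes to the left of 0. The 41 N-glycosylation genes had 43.9% higher and 4.88% lower, and all 14565 genes tested had 11.4% higher and 21.7% lower.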

How the data were processed

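RNA-Seq counts of 16 libraries of CD11b+ cells were analysed in the CON, MAL, and MAL-BG groups. The authors prepared stranded poly(A) libraries, used STAR to align paired reads to GRCm38.p6 and HTSeq to count reads on genes, and deposited one table of raw counts. The annotation and strand setting of the counting are not given in the sources used here. Columns of the table name the group and a running number, which matches no sample title, and letters that the titles carry were not used.

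The filter required counts above 10 in 4 or more libraries (14565 of 24421 genes). Counts were scaled by TMM and fitted in one model of the 3 groups by edgeR 4.0.16 (quasi-likelihood test, R 4.3.3, limma 3.58.1), with Benjamini-Hochberg adjustment over all genes tested. No batch term was fitted, because the batch of each library was not known here. The authors' own DESeq2 model did hold a batch term beside the group. Whether batch aligned with the groups could not be checked, so the p-values here do not account for it. The test gives no standard error of a log2 fold change. The values shown were derived as the absolute log2 fold change divided by the square root of the F statistic. CPM use TMM-scaled library sizes, and levels between genes were compared per kilobase of GENCODE exons. For ratios, 0.5 was added to each count, and 12 differences of mean log2 ratios were tested by exact permutation. Libraries of a group differed by more than counting noise (chi-square per degree of freedom at least 9.80 over 37 pairs).

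The 41 genes, the other gene and marker lists, and the gene pairs were chosen with earlier results of these data known. Values by library are given for genes that were DEGs in both MAL-BG comparisons and for the gene of each role with the highest CPM per kilobase. In other lists, the 3 DEGs of both comparisons with the largest change against CON are named, and for MAL versus CON the 2 genes with the smallest p. Markers of monocytes, border macrophages, lymphocytes, astrocytes, oligodendrocytes, endothelium, and ependyma were also summed. The steps were run on simulated counts in which a small set of genes changed far beyond the threshold, as many up as down. That setting differs from these libraries, so it does not test calls near the threshold or the choice of scaling. Alternatives were other scalings and filters, DESeq2 1.42.0, no threshold on the fold change, models of only 2 groups, thinned libraries, offsets for gene length and GC content, and each library left out in turn.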

Additional observations from a re-analysis of the deposited data

Results flagged for a closer look

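Single libraries stood apart for 9 of 123 combinations of gene and group, by the gap to the nearest library of the group relative to the range of the group (Dixon's criterion at the 95% level on log2 CPM). Chance gives such a gap in about 5% of groups. In MAL-BG, replicate 5 was low for Dpagt1 (54.8 CPM, the nearest library at 63.6 CPM). Replicate 2 was low for Alg14 (3.60 CPM, nearest 8.22 CPM) and for Alg2 (30.3 CPM, nearest 37.1 CPM). Replicate 6 was low for Dpm3 (21.1 CPM, nearest 33.6 CPM) and for Mpdu1 (44.6 CPM, nearest 79.0 CPM), and replicate 1 was high for Ddost (334 CPM, nearest 262 CPM). In CON, replicate 1 was high for Dolk (21.4 CPM, nearest 17.6 CPM) and replicate 4 low for Rpn1 (155 CPM, nearest 184 CPM). In MAL, replicate 4 was high for Magt1 (139.8 CPM, nearest 108 CPM). Outside this rule, and seen only after the values, MAL-BG replicates 1, 5, and 6 were divided from replicates 2, 3, 4, and 7 in several results. Replicates 1, 5, and 6 were the higher ones for Alg10b, Stt3a, Ganab, and Man1a. They were the lower ones for the ratios of Magt1 to Tusc3, Prkcsh to Ganab, and Rpn1 to Stt3a. Whether this division follows a batch could not be checked. The causes were not tested.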

How the results depend on the processing

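The number of N-glycosylation genes called moved by no more than 1.5 times under every alternative run, with 1 exception. Without a fold change threshold, 4 genes in place of 2 were lower against MAL. When length and GC content entered as offsets, 12 genes were DEGs higher than CON and 13 higher than MAL, and Alg8, Dolk, and Ddost lost both calls. Alg5, Alg11, and Mgat2 lost their call against CON, where Ost4 became a DEG lower in MAL-BG, and Alg3, Ostc, and Krtcap2 lost theirs against MAL, where Alg6 and Dpm1 became DEGs. With total counts only, Alg5, Alg6, Alg11, Dolk, and Mgat2 lost the call against CON and Alg3, Alg8, Ostc, and Krtcap2 that against MAL. The median log2 fold change of the 41 genes moved with the scaling. It was 0.40 against CON and 0.34 against MAL with total counts only, 0.76 and 0.71 with scaling by the mean log2 CPM, and 0.69 and 0.61 with that scaling plus the offsets, while the median of all genes was -0.17, 0.21, and 0.21 against CON. Of all DEGs against CON, 34.4% were higher by TMM, 22.4% with total counts only, and 57.8% with the mean log2 CPM. With CON replicate 1, MAL replicate 4, and MAL-BG replicate 5 left out together, an alternative added after seeing the data, the medians were 0.66 and 0.59. With 1 library left out at a time, the median against CON ranged from 0.48 to 0.64, the highest value being that without MAL-BG replicate 2. Ganab turned to 0.049 against CON and 0.025 against MAL under scaling by the mean log2 CPM, and to 0.084 and 0.069 with the offsets as well, where Gnptab turned to 0.028 against CON. A tally was made for genes that were DEGs in both comparisons and for the gene of each role with the highest CPM per kilobase. It also took in the 2 genes named for MAL versus CON. Of its 1160 values under the alternatives, 1141 kept their direction and their side of the threshold, 8 fell below it, 6 passed it, and 5 reversed. The tally leaves out genes nearer the threshold, whose calls changed more often. Alg11 lost its call against CON in 4 settings and in 9 fits with 1 library left out, and Ostc lost its call against MAL in 4 and 8. Other causes were not tested. No paired analysis was possible because the columns carry running numbers that match no sample title, and the batch of a library was not known here. Depth limited Dpm1 most, at 2.85 CPM in CON.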

Other observations

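Genes of the calnexin cycle, named here after their values were seen, act on the glycans that Mogs, glucosidase II, and Uggt1 shape. Canx, a membrane chaperone that binds trees with a single glucose, was higher in MAL-BG by 0.62 against CON and by 0.65 against MAL (adjusted p = 0.000258 against CON, edgeR). Pdia3, a disulfide isomerase that works with it, was higher by 0.64 and 0.64 (adjusted p = 0.000789 against CON), and both were DEGs. Calr, the soluble counterpart of Canx, passed the test below the fold change threshold (0.42, adjusted p = 0.0158). Edem2, which marks misfolded glycoproteins for disposal by trimming mannose, was higher by 1.04 (adjusted p = 0.000166), while Edem3 was at 0.15 and did not pass (adjusted p = 0.304). Of the genes that add terminal sugars, B4galt1 and St6gal1 were DEGs higher in MAL-BG (0.88 and 0.76 against CON), while B4galt2 was at -1.75, and B4galt3 (0.27), St3gal3 (0.26), St3gal4 (-0.21), and St3gal6 (0.09) did not pass against CON (adjusted p = 0.403, 0.192, 0.210, and 0.702, edgeR).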
